A study of Caenorhabditis elegans with 6 samples.

Results

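The genes described here were the sperm genes of *C. elegans* outside the major sperm protein (msp) family. The rule takes every gene with a symbol in *ssp-*, *spe-* or *nspd-* together with *gsp-3* and *gsp-4*. It uses no measured value, but it was written with earlier results of these data known. This gave 44 of the 15207 genes listed in both deposited tables, made up of 21 *spe* genes, 12 *ssp* genes, 9 *nspd* genes and 2 *gsp* genes. VK2-treated worms were N2 adults, the wild-type strain, kept from young adulthood on NGM agar plates with 0.1 μM VK2 (vitamin K2) at 20°C for 7 days. Control worms were the same strain at the same temperature for the same 7 days without VK2. In both groups the adults were moved to fresh plates each day, away from their progeny, and RNA was taken from whole bodies. Each group had 3 libraries, T1, T2, and T3 from VK2-treated worms and C1, C2, and C3 from control worms. The labels do not say that these came from separate cultures, so p-values measure only the spread between libraries, and they do not give the sex of the worms.

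A *C. elegans* hermaphrodite makes a limited stock of sperm late in larval life, then switches its germline to oocytes and uses the stored sperm during early adulthood. Developing sperm pack their proteins into an organelle, the fibrous body-membranous organelle, and spermatids later become crawling sperm in a step called activation. Mature sperm carry RNA made during spermatogenesis, because transcription stops before the spermatids form. In whole worms, fewer sperm cells and less RNA per sperm cell cannot be told apart.

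The measurement was FPKM, a density of fragments corrected for transcript length and library size, and a gene's value is the sum of its transcripts. T1 and C1 were deposited in the first table and T2, T3, C2, and C3 in the second, and levels were compared only within a table because the FPKM of all transcripts summed to between 654910 and 686279 in the first and between 369349 and 396004 in the second. Read numbers are not given in the sources used here. The depth of the libraries, and the precision it gives, are therefore unknown. Genes were tested with limma on log2(FPKM + 1), allowing for VK2 and the table, over the 14191 genes whose mean FPKM was 1 or more. This scale shrinks the changes of genes of low FPKM. The control library C3 stood apart in the second table. The log2 difference between the controls C2 and C3 had an SD over all genes tested of 0.695, against 0.292 between T2 and T3. Counts of fitted differences of the sperm genes outside the msp family are also given without C3.

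All 44 sperm genes were listed in both tables, and their FPKM summed to 999 in T1 against 631 in C1, and to 410 in T2 and 366 in T3 against 378 in C2 and 236 in C3. C1 was therefore below T1, and C3 was the lowest library of the second table, while C2 lay between both VK2 libraries of its table. The ratio was 1.58 for T1 over C1, 1.08 for T2 over C2 and 1.55 for T3 over C3. With the controls of the second table exchanged, it was 1.74 for T2 over C3 and 0.967 for T3 over C2. The ratio between the controls C2 and C3 was 1.60, larger than any of the ratios between libraries of the same number. These genes made up 0.152% of all FPKM in T1 against 0.0920% in C1, and 0.111% in T2 and 0.0956% in T3 against 0.0955% in C2 and 0.0631% in C3.

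**Figure D1:**
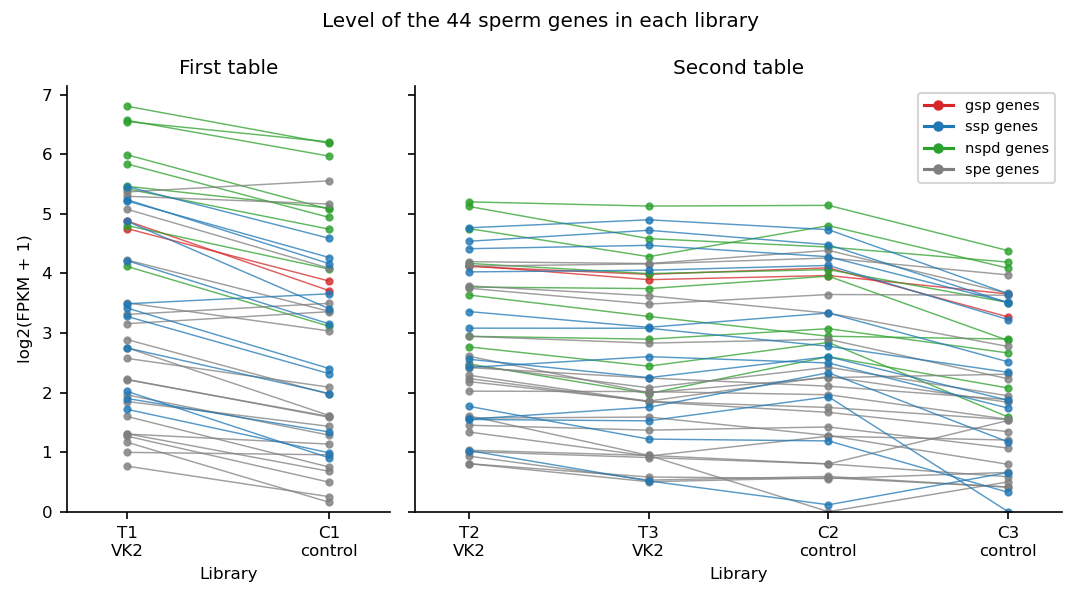
Each line is 1 of the 44 sperm genes, with log2(FPKM + 1) on the vertical axis and the libraries of each table on the horizontal axis, VK2 left of control. Most lines are lower in C1 than in T1, and 36 of the 44 genes have their lowest value of the second table in C3.

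Gene by gene, T1 was above C1 for 40 of the 44 genes, 30 of them by at least 1.5 times on the log2(FPKM + 1) scale. Of the 38 that passed this filter, 34 were above and 26 by at least 1.5 times, against 51.2% and 9.48% of all genes tested. T2 was above C2 for 31 of the 44 genes, and for 25 of the 38 tested, against 37.9% of all genes. Only 3 of the 38 reached 1.5 times in that pair, against 4.02% of all genes. T3 was above C3 for 37 of the 44, and for 33 of the 38, against 59.3% of all genes. In that pair 15 of the 38 reached 1.5 times, against 14.8% of all genes. The median log2 change over the 44 genes was 0.73 for T1 minus C1, 0.06 for T2 minus C2 and 0.42 for T3 minus C3, where the medians of all genes tested were 0.01, -0.07 and 0.11. Single pairs have no replicate check.

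The counts of the second table depended on which control library was used. T2 was above C3 for each of the 44, by a median of 0.66, and for 38 of the 38 tested, against 59.2% of all genes. By at least 1.5 times it was above for 23 of the 38, against 16.4% of all genes. T3 was above C2 for 19 of the 44, with a median of -0.06, and for 15 of the 38 tested, against 36.8% of all genes. It reached 1.5 times for 0 of the 38, against 2.23% of all genes. The control C2 itself was above the control C3 for 39 of the 44 genes, with a median of 0.46, and for 36 of the 38 tested, against 62.1% of all genes. That difference reached 1.5 times for 17 of the 38, against 20.4% of all genes. C3 was the lowest of its 4 libraries for 33 of the 38 tested, against 49% of all genes. Both VK2 libraries were above both controls of this table for 15 of the 44 genes, and all 15 were also above in T1. Of the 38 tested these were 13, against 11% of all genes for the second table and 6.83% for both tables. In the pairs of the same number, 24 of the 44 genes were above in all 3, as were 20 of the 38 tested, against 10.8% of all genes. A change of at least 1.5 times in all 3 pairs was found for 0 of the 38, against 0.218% of all genes.

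**Figure D2:**
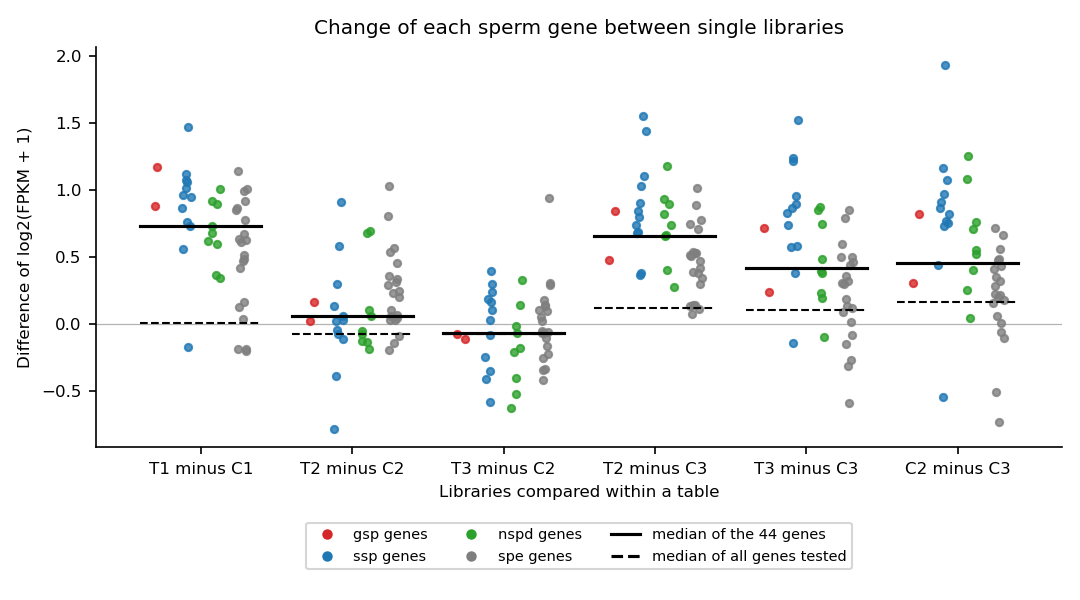
Points are single sperm genes, coloured by family, and show the difference of log2(FPKM + 1) between the libraries named on the horizontal axis, with the median of the 44 genes as a solid line and that of all genes tested as a dashed line. The median of the sperm genes is 0.73 for T1 minus C1 and 0.66 for T2 minus C3, but -0.06 for T3 minus C2, and the controls C2 and C3 differ by 0.46.

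By the fitted difference, VK2-treated minus control worms, 36 of the 38 sperm genes tested were higher with VK2, against 55.1% of all genes tested. The median was 0.48 on the log2 scale, where that of all genes was 0.02, and the range ran from -0.09 for *spe-5* to 0.86 for *ssp-36*. At least 1.5 times was reached by 10 of the 38, against 3.33% of all genes, and 0 were lower by as much, against 1.68%. After Benjamini-Hochberg adjustment over all genes limma called 0 of the 38 at an adjusted p below 0.05, as it called 0% of all genes, and every one of the 38 had an adjusted p that rounds to 1.00. At an unadjusted p below 0.05 limma gave 10 higher, against 2.87% of all genes, and 0 lower, against 0.705%. A plain F-test between nested linear models, a form like that of Ballgown but with no term for library size, also called 0 after adjustment. It gave 5 higher at an unadjusted p below 0.05, where 2.93% of all genes had such a p in either direction. The 10 of limma became 0 when either T1 or C1 was left out, 4 without T2, 8 without T3, 8 without C3 and 23 without C2. The share of all genes at an unadjusted p below 0.05, in either direction, moved too, and was 3.57% with every library, 1.35% without T1 or C1, 1.09% without T2, 2.61% without T3, 7.21% without C3 and 11.2% without C2. The 10 genes at 1.5 times became 4 without T1 or C1, 6 without C3, 16 without T3 and 21 without C2, where 3.43%, 2.502%, 4.82% and 7.73% of all genes were higher by as much. The 36 genes above 0 became 32 without C3, where the median of all genes was -0.04. They became 33 without T1 or C1, where it was 0.02. The share of all genes above 0 is not given for these fits.

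**Figure D3:**
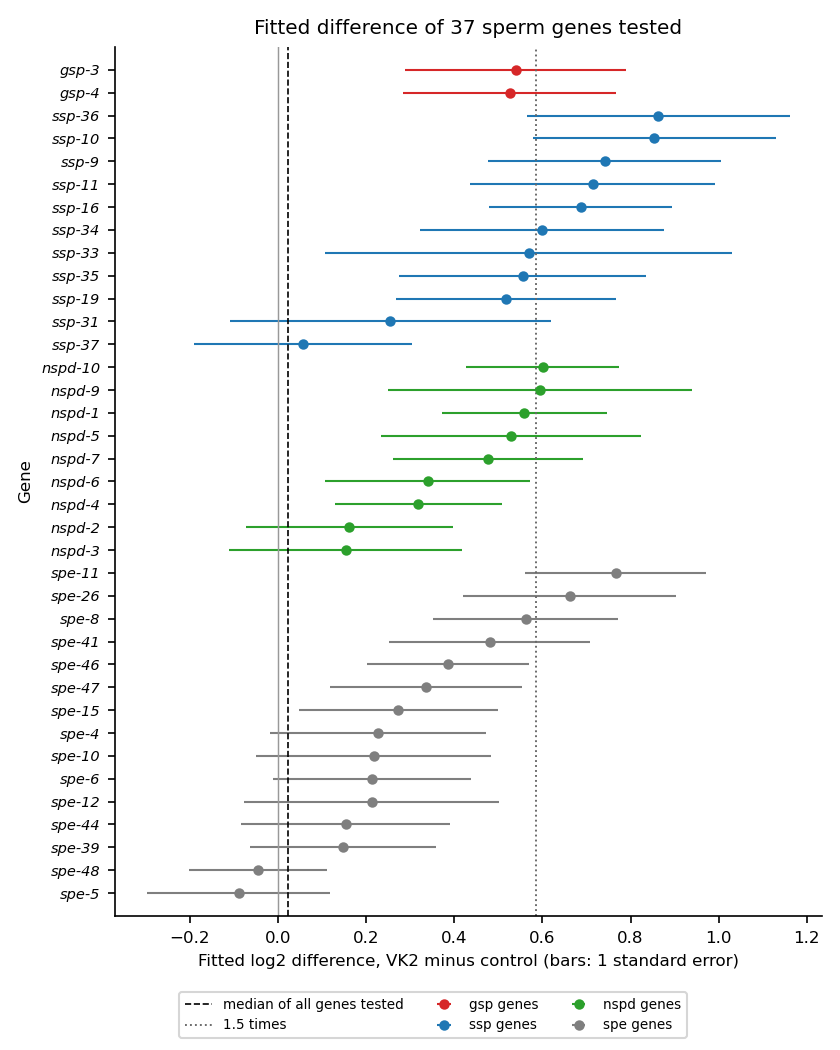
Points are the fitted log2 differences, VK2 minus control, of 37 of the sperm genes tested, with bars of 1 standard error from limma, grouped by family. The points of 35 genes lie above 0, the dashed line marks the median of all genes tested (0.02) and the dotted line marks 1.5 times.

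*gsp-3* and *gsp-4* encode sperm forms of protein phosphatase 1. They are close paralogs, so how their reads were divided between them is uncertain. The FPKM of *gsp-3* (WBGene00021113), which lies at 4709262 to 4710712 on chromosome I of WBcel235, was 25.9 in T1 and 13.6 in C1, and 16.3 in T2 and 14.8 in T3 against 16.1 in C2 and 8.64 in C3. *gsp-4* (WBGene00020187, chromosome I, 3838237 to 3839695) had 28.5 in T1 against 12.1 in C1, and 16.5 in T2 and 13.9 in T3 against 14.6 in C2 and 11.6 in C3. For both genes T1 was well above C1, while in the second table the groups overlapped, with C2 between the VK2 libraries. The fitted log2 difference was 0.54 ± 0.25 (SE) for *gsp-3* and 0.53 ± 0.24 for *gsp-4*, with an unadjusted p of 0.0696 and 0.0663 from limma.

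The *ssp* genes encode small proteins related to the major sperm proteins, and their loci span 366 to 768 bp. The family summed to 204 FPKM in T1 against 102 in C1, and 117 in T2 and 121 in T3 against 114.8 in C2 and 56.6 in C3. C2 lay close to the VK2 libraries and C3 well below the other libraries. Of the 12 genes, 11 were above in T1 over C1, 7 in T2 over C2 and 11 in T3 over C3, and the medians were 0.95, 0.03 and 0.85. Of all genes tested, 51.2%, 37.9% and 59.3% were above in these pairs. All 11 tested had a fitted difference above 0, against 55.1% of all genes, with a median of 0.60. All 11 were also above 0 with upper quartile scaling and with quantile normalization. Without C3, 10 of the 11 were above 0, with a median of 0.41, where that of all genes was -0.04. In the second table alone and without T2, 10 were above 0.

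*ssp-36* (chromosome IV, 9765669 to 9766436) had the highest fitted difference of the sperm genes, at a low level. It had 3.05 FPKM in T1 against 0.869 in C1, and 2.41 in T2 and 1.33 in T3 against 1.28 in C2 and 0.253 in C3, so the groups did not overlap, though T3 and C2 nearly met. The log2 difference was 0.86 ± 0.30 with an unadjusted p of 0.0235 from limma. *ssp-10* (chromosome IV, 9850696 to 9851061) was much more abundant, with 28.3 in T1 against 9.61 in C1, and 20.3 in T2 and 21.2 in T3 against 18.4 in C2 and 10.4 in C3. It too was higher in both VK2 libraries of the second table than in both controls, with a difference of 0.85 ± 0.28 and an unadjusted p of 0.0178 from limma.

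*ssp-9* (4994324 to 4994739) and *ssp-11* (4999439 to 4999853) lie on chromosome IV with 4700 bp between them. The current Ensembl annotation gives the symbol *ssp-9* to both, and how reads were divided between them is uncertain. *ssp-9* had 36.1 FPKM in T1 against 18.2 in C1, and 22.3 in T2 and 25.4 in T3 against 21.3 in C2 and 10.4 in C3. *ssp-11* had 42.9 in T1 against 23.1 in C1, and 26.2 in T2 and 28.9 in T3 against 25.6 in C2 and 11.6 in C3. In each gene C2 was just under both VK2 libraries and C3 far below them. Their differences were 0.74 ± 0.26 and 0.71 ± 0.28, with an unadjusted p of 0.0268 and 0.0373 from limma.

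*ssp-16* (chromosome I, 6102032 to 6102463) had 9.69 in T1 against 4.29 in C1, and 7.46 in T2 and 7.46 in T3 against 5.86 in C2 and 4.06 in C3. Here the VK2 libraries agreed closely and stood above both controls, with a difference of 0.69 ± 0.21 and an unadjusted p of 0.0135 from limma. *ssp-34*, among the most abundant of the family, had 36.8 in T1 against 16.9 in C1 and overlapped in the second table, with 15.3 in T2 and 15.6 in T3 against 16.6 in C2 and 8.36 in C3. Its difference was 0.60 ± 0.28. The lowest fitted differences of the family were 0.26 for *ssp-31* and 0.06 for *ssp-37*. *ssp-31* had 8.70 in T1 against 3.98 in C1, and 1.94 in T2 and 2.37 in T3 against 4.04 in C2 and 1.25 in C3, so C2 was the highest library of its table. *ssp-37* was the only *ssp* gene lower in T1 than in C1, at 10.2 against 11.6. The other tested members, *ssp-19*, *ssp-33* and *ssp-35*, had differences between 0.52 and 0.57, and *ssp-33* was listed at 0 in C3.

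The *nspd* genes encode nematode-specific short peptides and had the highest summed FPKM of these families in every library. Their loci span 331 to 439 bp, and copies with near-identical sequence may share reads. The family summed to 545 FPKM in T1 against 351 in C1, and 154 in T2 and 125 in T3 against 138 in C2 and 86.9 in C3. T1 was above C1 for all 9 genes, T2 above C2 for 4 and T3 above C3 for 8, with medians of 0.68, -0.05 and 0.39. The shares of all genes tested were 51.2%, 37.9% and 59.3%. All 9 had a fitted difference above 0, against 55.1% of all genes, with a median of 0.48. All 9 were also above 0 with both other scalings. Without C3, 8 of the 9 were above 0, with a median of 0.28, where that of all genes was -0.04. In the second table alone 8 were above 0.

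*nspd-7* (chromosome IV, 10268882 to 10269228) had the highest FPKM of all 44 genes in T1 and in each library of the second table, with 111 in T1 against 71.7 in C1, and 35.8 in T2 and 34.04 in T3 against 34.3 in C2 and 19.9 in C3. C2 lay between the VK2 libraries, and the difference was 0.48 ± 0.22. *nspd-2* (chromosome IV, 9844014 to 9844344) had 92.7 in T1 against 72.9 in C1, the highest FPKM of the 44 in that library, and 25.9 in T2 and 18.4 in T3 against 26.9 in C2 and 16.0 in C3. Its fitted difference was 0.16 ± 0.23 and was -0.02 without C3.

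*nspd-1* (chromosome I, 6097494 to 6097837) and *nspd-10* (chromosome I, 10878047 to 10878378) were the members of this family in which both VK2 libraries of the second table exceeded both controls. *nspd-1* had 94.1 in T1 against 61.6 in C1, and 33.9 in T2 and 23.0 in T3 against 20.8 in C2 and 17.3 in C3. *nspd-10* had 26.9 in T1 against 15.8 in C1, and 11.4 in T2 and 8.70 in T3 against 6.70 in C2 and 6.46 in C3. The controls of *nspd-10* hardly differed, unlike those of most sperm genes. The log2 difference was 0.56 ± 0.19 for *nspd-1* and 0.60 ± 0.17 for *nspd-10*, with an unadjusted p of 0.0204 and 0.0110 from limma.

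*nspd-9* had 16.3 in T1 against 7.65 in C1, and 5.80 in T2 and 4.44 in T3 against 6.17 in C2 and 2.01 in C3. Its difference of 0.59 ± 0.35 had the largest standard error of the family, with C2 above both VK2 libraries. *nspd-3* had 41.8 in T1 against 25.8 in C1, and 4.58 in T2 and 2.95 in T3 against 5.08 in C2 and 3.22 in C3. Its difference was 0.15 ± 0.26 over both tables and -0.11 in the second table alone. The remaining *nspd-4*, *nspd-5* and *nspd-6* had differences between 0.32 and 0.53.

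The *spe* genes are named for mutants with defective spermatogenesis and encode proteins of many kinds. The family summed to 195 FPKM in T1 against 152 in C1, and 106 in T2 and 90.9 in T3 against 95.3 in C2 and 72.0 in C3. Of the 21, 18 were above in T1 over C1, 18 in T2 over C2 and 16 in T3 over C3, with medians of 0.62, 0.24 and 0.30. Among all genes tested, 51.2%, 37.9% and 59.3% were above in these pairs. Of the 16 tested, 14 had a fitted difference above 0, against 55.1% of all genes. Their median was 0.25 and became 0.17 with quantile normalization. Without C3, 12 were above 0, where the median of all genes was -0.04. The median of 0.25 was lower than in the *ssp* and *nspd* families, and whether the families differ was not tested.

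*spe-11*, which encodes a factor that the sperm brings to the egg and the embryo needs, had the smallest p of the 44 genes. It lies on chromosome I from 5330578 to 5332194. It had 32.8 FPKM in T1 against 16.0 in C1, and 12.8 in T2 and 11.3 in T3 against 9.08 in C2 and 5.84 in C3. Every VK2 library was above every control of its table. The log2 difference was 0.77 ± 0.21, with an unadjusted p of 0.00749 and an adjusted p of 1.00 from limma, and it ranged from 0.64 to 0.96 when single libraries were left out.

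Among genes that act in sperm activation, *spe-8*, which encodes a non-receptor tyrosine kinase, had 3.64 in T1 against 2.03 in C1, and 3.71 in T2 and 2.596 in T3 against 2.18 in C2 and 1.54 in C3. The groups did not overlap in either table, and the difference was 0.56 ± 0.21 with an unadjusted p of 0.0316 from limma. *spe-46* had 4.95 in T1 against 3.26 in C1, and 4.35 in T2 and 3.74 in T3 against 3.31 in C2 and 2.69 in C3, also without overlap, with a difference of 0.39 ± 0.18. *spe-12*, which acts in the same pathway as *spe-8*, had 2.602 in T1 against 1.70 in C1, and 2.05 in T2 and 0.925 in T3 against 0.743 in C2 and 1.89 in C3. It was one of the genes in which C3 exceeded C2, and its difference was 0.21 ± 0.29. *spe-47*, which encodes a protein with an MSP domain, had a difference of 0.34 ± 0.22, with 1.74 in T2 and 1.58 in T3 against 1.68 in C2 and 1.10 in C3. *spe-4*, of the presenilin family, and *spe-6*, of the casein kinase 1 family, had differences of 0.23 ± 0.24 and 0.21 ± 0.22. All 8 activation genes listed were above in T1 over C1 and in T2 over C2, against 51.2% and 37.9% of all genes tested. In T3 over C3, 6 of the 8 were above, against 59.3% of all genes. Only 6 of the 8 had a mean FPKM of 1 or more.

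Sperm surface proteins needed for fertilization were at low levels. *spe-41*, which encodes a TRPC calcium channel, had 6.41 in T1 against 2.92 in C1, and 3.07 in T2 and 3.05 in T3 against 2.90 in C2 and 1.93 in C3. Both VK2 libraries were above both controls of the second table, though C2 by little, and the difference was 0.48 ± 0.23 with an unadjusted p of 0.0734 from limma. Other surface genes were under a mean FPKM of 1 and were not tested. *spe-9*, which encodes a membrane protein with EGF repeats, had 1.41 in T1 against 0.409 in C1, and 1.01 in T2 and 0.878 in T3 against 0.744 in C2 and 0.502 in C3. *spe-42* had 0.698 in T1 against 0.190 in C1, and 0.747 in T2 and 0.417 in T3 against 0.484 in C2 and 0.332 in C3. Both were higher in T1 than in C1, and *spe-9* did not overlap in the second table, whereas *spe-42* did.

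Further members under a mean FPKM of 1 were *spe-19*, *spe-27* and *ssp-32*. *spe-19*, of the *spe-8* pathway, had 1.24 in T1 against 0.115 in C1, and 1.04 in T2 and 0.924 in T3 against 0.415 in C3, and was listed at 0 in C2. *spe-27*, of the same pathway, had 0.994 in T1 against 0.939 in C1, and 0.907 in T2 and 0.444 in T3 against 0.507 in C2 and 0.331 in C3. *ssp-32* had 2.29 in T1 against 0.983 in C1, and 1.04 in T2 and 0.430 in T3 against 0.0836 in C2 and 0.578 in C3. How many fragments stand behind values this low is unknown. With no filter on the mean FPKM all 44 genes entered the fit and 42 of them had a difference above 0. At least 1.5 times was reached by 11 of them, against 3.25% of all genes.

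Genes that act in sperm assembly were more mixed. *spe-26*, which encodes a kelch-repeat protein, had 5.74 in T1 against 2.06 in C1, and 3.889 in T2 and 2.61 in T3 against 2.36 in C2 and 1.92 in C3. It did not overlap in either table, and the difference was 0.66 ± 0.24 with an unadjusted p of 0.0291 from limma. *spe-15*, which encodes a class VI myosin, had 17.7 in T1 against 9.28 in C1 but 12.5 in T2 and 10.2 in T3 against 11.5 in C2 and 11.4 in C3. Its difference was 0.27 ± 0.23 over both tables and -0.02 in the second alone. *spe-10*, a palmitoyltransferase gene, had a difference of 0.22 ± 0.27 and of -0.10 in the second table alone. *spe-44*, which encodes a transcription factor of the spermatogenesis program, had 8.93 in T1 against 10.3 in C1, and 6.70 in T2 and 6.11 in T3 against 6.44 in C2 and 3.69 in C3, with a difference of 0.15 ± 0.24.

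Among the *spe* genes with the highest FPKM were *spe-48* and *spe-39*, in which T1 and C1 were closer to each other than in most of the others. *spe-48* had 40.3 in T1 against 46.01 in C1, and 16.4 in T2 and 16.9 in T3 against 18.2 in C2 and 14.7 in C3, with a difference of -0.05 ± 0.16. *spe-39*, a vesicle-trafficking gene that is used in many tissues, had 38.3 in T1 against 34.9 in C1, and 17.3 in T2 and 16.95 in T3 against 19.9 in C2 and 11.7 in C3, with a difference of 0.15 ± 0.21. *spe-5*, which encodes a B subunit of the vacuolar ATPase, had 7.92 in T1 against 9.25 in C1, and 3.54 in T2 and 2.62 in T3 against 3.82 in C2 and 2.57 in C3, with a difference of -0.09 ± 0.21. T1 was below C1 in 4 of the 44 genes, namely *spe-5*, *spe-44*, *spe-48* and *ssp-37*.

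In a few genes, chosen after their values were seen, the division of FPKM between transcripts differed between libraries, which the sums did not show. How reads were divided between overlapping transcripts cannot be told apart from a change of transcript here. *gsp-4* had transcripts T03F1.5.3 and T03F1.5.2, whose loci almost coincide, and nearly all of its FPKM fell on one or the other. T03F1.5.3 had 28.1 in T1 against 11.3 in C1, and 16.3 in T2 and 0.246 in T3 against 0.266 in C2 and 11.2 in C3. T03F1.5.2 had 0.373 in T1 against 0.798 in C1, and 0.290 in T2 and 13.6 in T3 against 14.3 in C2 and 0.377 in C3. The exchange cut across the groups, with T3 and C2 on the same side, while the sum for the gene stayed between 11.6 and 16.5 in the second table. *spe-48* had 4 transcripts in the first table, of which Y51F10.10a had 24.6 in T1 against 5.58 in C1 and Y51F10.10d had 1.25 in T1 against 17.8 in C1. With the transcript of the highest mean FPKM in place of the sum, the difference of *spe-48* was 0.66 and that of *spe-15* was -0.22. That of *spe-46* was then 1.02, against 0.39 for the sum, and the transcript used, W06D4.2.1, was listed at 0 in C2. The number of sperm genes at 1.5 times was then 12 of 38, against 5.10% of all genes, where the sum gave 10 of 38 and 3.33%.

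**Figure D4:**
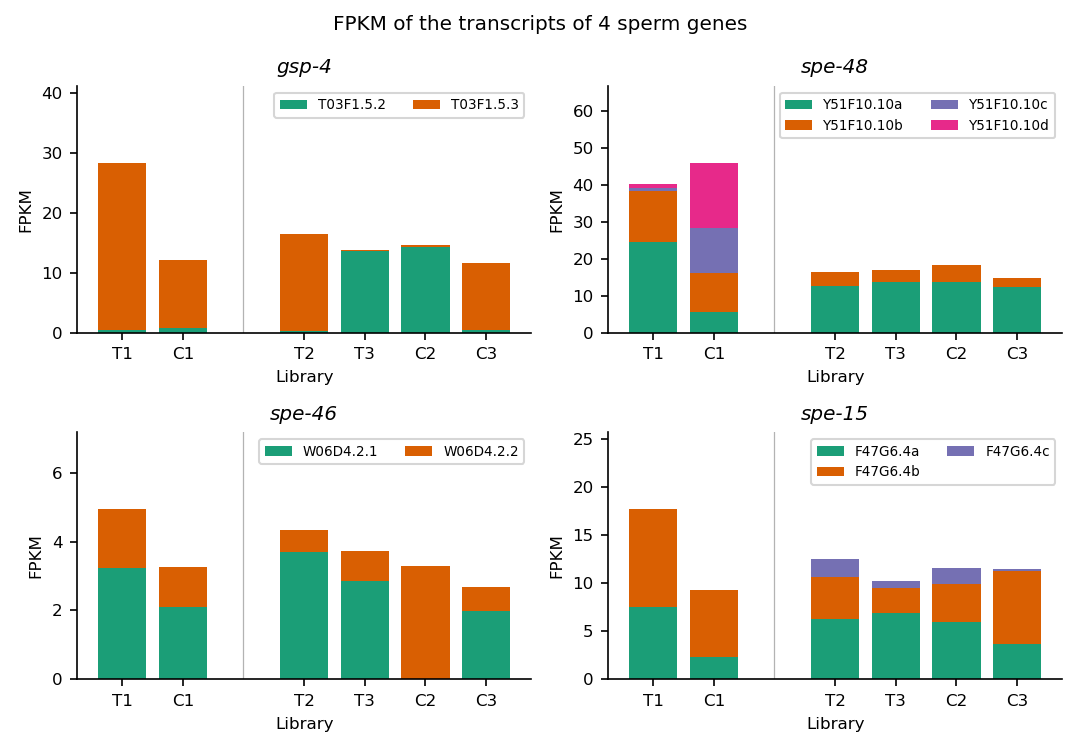
Stacked bars give the FPKM of each transcript of *gsp-4*, *spe-48*, *spe-46* and *spe-15* in each library, with the first table left of the grey line and VK2 left of control within a table. The transcript of *gsp-4* that carries most of the FPKM is T03F1.5.2 in T3 and C2 and T03F1.5.3 in the other libraries.

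The 44 genes were unevenly placed in the genome, which the choice by symbol did not use. Chromosome I held 18 of them, or 40.9%, and chromosome IV held 15, or 34.1%, where these chromosomes hold 16.4% and 17.2% of all genes tested. The X chromosome held 0 of the 44, where it holds 13.9% of all genes tested. Some members were close neighbours, such as *nspd-3* and *nspd-6* with 2346 bp between them, *nspd-1* and *ssp-16* with 4195 bp, and *nspd-2* and *ssp-10* with 6352 bp. Neighbours did not always share their values, since the difference was 0.16 for *nspd-2* and 0.85 for *ssp-10*. The loci of *spe-5*, *spe-9*, *spe-15* and *spe-26* overlap a gene on the other strand, and that of *spe-27* overlaps a gene on its own strand. The library kit keeps the strand, but whether counting used it is not stated in the sources, and the values of these 5 genes are uncertain.

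Other sperm markers moved with these genes. The 30 msp genes, which encode the cytoskeletal protein of sperm crawling, summed to 1721 FPKM in T1 against 934 in C1, and 1235 in T2 and 1265 in T3 against 1211 in C2 and 659 in C3. All 30 had a fitted difference above 0, with a median of 0.59, and 17 were higher at an unadjusted p below 0.05 from limma. All genes tested gave 55.1% above 0 and 2.87% higher at that p. Copies with near-identical sequence may share reads, so the 30 may not be separate observations. C3 was the lowest library of its table for all 30, against 49% of all genes. Of a list of 35 further sperm and spermatogenesis genes, written by symbol, 26 were found in both tables. Among the 25 of these that were tested, 20 were above 0, with a median of 0.42 and 9 higher at an unadjusted p below 0.05 from limma. They included the sperm chromatin genes *spch-1*, *spch-2* and *spch-3*, with differences of 0.71, 0.77 and 0.79, and the spermatogenesis Argonautes *alg-3* and *alg-4*, with 0.60 and 0.61. The genes *fog-1* and *fog-3*, which set the sperm fate in the germline, had -0.09 and 0.24. Besides *fog-1*, the members below 0 were *swm-1* (-0.38), *frk-1* (-0.20), *zipt-7.1* (-0.06) and *zipt-7.2* (-0.09). None of these genes had an adjusted p below 0.05.

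Markers of other tissues varied in the same libraries, some with the sperm genes and some not. The 20 oocyte genes, which cover eggshell, oocyte maturation and yolk uptake, summed to 6536 FPKM in T1 against 6763 in C1, and 2294 in T2 and 2370 in T3 against 2933 in C2 and 1015 in C3. The 6 yolk genes summed to 7093 in T1 against 6978 in C1, and to 4595 in T2 and 6009 in T3 against 6548 in C2 and 934 in C3. C3 was thus the lowest library of its table in oocyte and yolk RNA as well as in sperm RNA. C1 was below T1 in sperm RNA and close to T1 in oocyte and yolk RNA. With 1 library per group in the first table, a low C1 and a high T1 cannot be told apart. The 20 general germline genes summed to 2914 in T1 against 2695 in C1, and to 1102 in T2 and 1012 in T3 against 1240 in C2 and 711 in C3. The sum of the 15 cuticle genes, drawn as the larval cuticle list, ran the other way in C3. It was 1239 in T1 against 1190 in C1, and 1276 in T2 and 1517 in T3 against 1576 in C2 and 2373 in C3. For 1 of the 15, *dpy-17*, C3 was the lowest of its table, with 10.6 against 71.7 in T2, 98.6 in T3 and 105 in C2. The 10 muscle genes summed to 3088 in T1 against 2710 in C1, and to 2907 in T2 and 3154 in T3 against 3370 in C2 and 3009 in C3. The 9 intestine genes summed to 3124 in T1 against 2676 in C1, and to 2120 in T2 and 2540 in T3 against 2590 in C2 and 2465 in C3. T1 was above C1 for 8 of the 10 muscle genes, with a median of 0.35, and for 8 of the 9 intestine genes, with a median of 0.38. This was the direction of the sperm genes. Of all genes tested 51.2% were above in that pair, with a median of 0.01. Genes of the male soma were near the floor of the tables, with 6 of 15 listed in both, summing to 3.29 in T1 against 3.73 in C1, and to 7.52 in T2 and 4.601 in T3 against 5.65 in C2 and 9.16 in C3, and *dmd-3* among them was listed at 0 in T3 and C2. The part of these tissues in the values of the sperm genes was not tested.

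**Figure D5:**
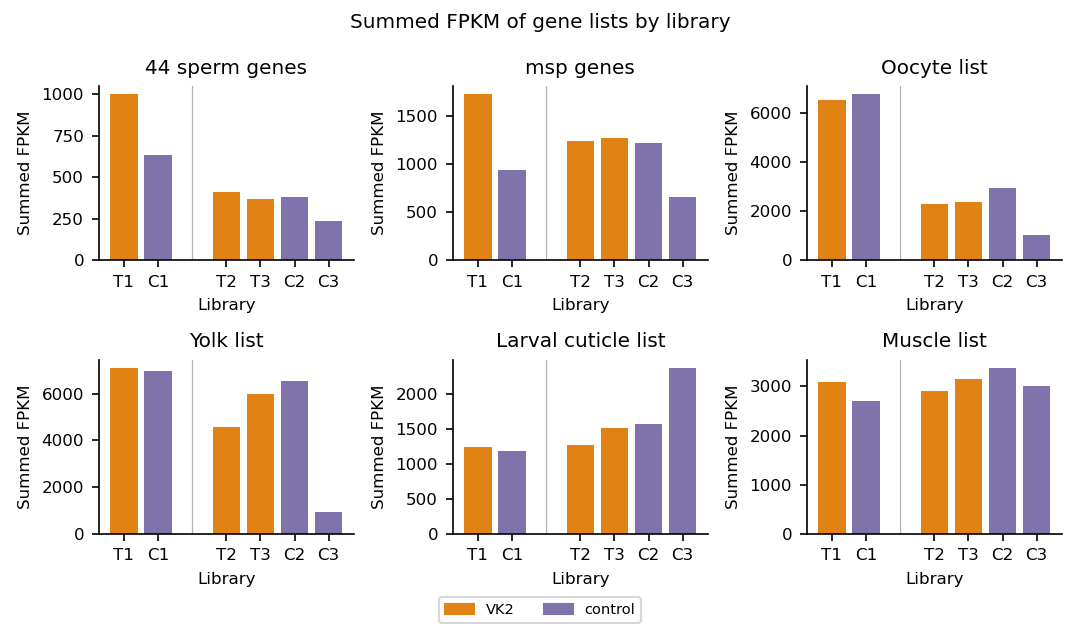
Bars give the summed FPKM of the 44 sperm genes and of 5 other lists in each library, with the first table left of the grey line and VK2 left of control within a table. In the first table the sperm genes (999 in T1 against 631 in C1) and the msp genes (1721 against 934) stand apart between T1 and C1, and in the second C3 is the lowest library for the sperm, msp, oocyte and yolk lists.

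Whether the difference between VK2-treated and control worms itself depended on the table was tested as an interaction in limma, in which the first table has 1 library per group, so that the spread comes from the 2 libraries per group of the second. An adjusted p below 0.05 was found for 0 of the 38 sperm genes and 0% of all genes, and an unadjusted p below 0.05 for 0 of the 38, against 1.81% of all genes. With so few libraries these p-values do not show that the tables gave the same difference. The genes with a profile most like the mean of the 44 over the 4 libraries of the second table were *C30G7.4*, *M117.1* and *gip-1*, each with a Pearson's r that rounds to 1.00. Over so few libraries such values are common, and 651 of 9730 other genes with a mean FPKM of at least 5 in that table, or 6.69%, had an r above 0.95.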

How the data were processed

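The authors aligned the reads to WBcel235 with Hisat2 (2.1.0 in the submitters' processing notes, which also name cutadapt, StringTie, and STAR 2.5.2b). Ballgown gave the deposited values, FPKM per transcript, in a table of T1 and C1 and a table of T2, C2, T3, and C3. The reason for this division is not stated in the sources, and the table cannot be told apart from a sequencing batch. The first table lists 24354 transcripts of 15882 genes and the second 25370 transcripts of 16724 genes, so a transcript can be listed in one table only. No step of whole fragments was found in the low values, and the depth is unknown.

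FPKM was summed per gene identifier. limma 3.58.1 in R 4.3.3 was fitted, two-sided, with the trend on and robust off, on log2(FPKM + 1) by VK2 and table, to 14191 genes that both tables list and whose mean FPKM was at least 1. Benjamini-Hochberg adjustment covered all of these genes. Counts at 1.5 times use the difference on this scale. Python 3.11.15, numpy 2.4.6, pandas 2.3.3, and matplotlib 3.10.9 served for tables and figures, and gene positions came from release 115 of Ensembl. The scripts were tested on simulated data.

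The members and all lists were chosen with earlier results of these data known. Named genes were *gsp-3* and *gsp-4*, in each other family the 3 with the highest mean FPKM and the 2 with the highest and the 2 with the lowest fitted difference, every listed *spe* gene with a role list, and every member with an unadjusted p below 0.05. The values of 2 members are in the counts and sums but are not reported here by name. Other members named outside this rule are given only to account for all 44. *spe-13*, *spe-18*, *spe-29*, *spe-36*, *spe-38*, *spe-43*, *spe-49* and *spe-51* were not analysed here. Alternatives were other pseudocounts, filters, scalings and variance models, no table term, a replicate block, each table alone and each library left out. Further ones were the plain F-test with no term for library size and the most abundant transcript in place of the sum. A pairing of T2 with C3 and T3 with C2 was added after seeing the data.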

Additional observations from a re-analysis of the deposited data

How the results depend on the processing

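No sperm gene reached an adjusted p below 0.05 from limma under any alternative, where the smallest for a named gene was 0.234, without C2, and 0 genes were lower by 1.5 times or at an unadjusted p below 0.05 in any of them. The count at 1.5 times (10) became 16 with a pseudocount of 0.1, 4 with a pseudocount of 5, 4 in the second table alone and 26 in the first pair alone, where 6.90%, 0.867%, 3.43% and 9.48% of all genes were higher by as much, against 3.33% in the reported fit. Leaving out single libraries gave 4 (without T1 or C1) to 21 (without C2). The count at an unadjusted p below 0.05 from limma (10) became 1 with no table term and 0 in the second table alone. In the plain F-test it was 5. The share of all genes at such a p, in either direction, was 0.493%, 1.40% and 2.93%, against 3.57% in the reported fit. With single libraries left out the count ranged from 0 (without T1 or C1, with 1.35% of all genes) to 23 (without C2, with 11.2%). The median difference (0.48) became 0.26 with a pseudocount of 5, 0.33 in the second table alone and 0.75 in the first pair alone, and ranged from 0.32 (without C3) to 0.65 (without C2).

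Of 660 values of 32 named genes under the alternatives, 617 kept their direction and call. Another 17, in the first pair alone, moved by more than their standard error, and 26 values of 10 genes turned in sign. Alternatives that change only the filter, the block, the table term or the variance model repeat the fitted difference of the reported fit. The second table alone and the fits without T1 or C1 repeat another. These counts therefore hold the same estimates several times and do not measure how firm the differences are. In the second table alone the values that turned were *nspd-3* (-0.11), *spe-10* (-0.10), *ssp-31* (-0.10), *spe-15* (-0.022) and *spe-48* (0.024). In the first pair alone they were *spe-44* (-0.19) and *ssp-37* (-0.17), and with the most abundant transcript *spe-15* (-0.22) and *spe-48* (0.66). With single libraries left out, *nspd-3* ranged from -0.11 (without T1 or C1) to 0.38 (without C2), *spe-10* from -0.10 (T1 or C1) to 0.42 (T3), *spe-15* from -0.022 (T1 or C1) to 0.43 (T3) and *ssp-31* from -0.10 (T1 or C1) to 0.69 (C2). Without C3 and without C2, the lowest and the highest, *nspd-2* had -0.016 and 0.39, *spe-39* -0.061 and 0.35, *spe-5* -0.23 and 0.018, and *ssp-37* -0.18 and 0.23. *spe-44* ranged from -0.084 (C3) to 0.32 (T1 or C1), *spe-48* from -0.15 (C3) to 0.024 (T1 or C1), with 0.015 without C2, and *ssp-37* was -0.064 without T2. The cause was not tested.

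The deviation of each library from its group mean, taken over both tables, was correlated across genes (Pearson's r). This gave 0.881 for T1 and C1, 0.556 for T2 and C2 and 0.543 for T3 and C3. T2 with C3 (0.608) and T3 with C2 (0.613) were as high. These r hold the difference between the tables and cannot show a pairing. Within the second table, T2 minus T3 against C2 minus C3 gave -0.111, so the numbers were not taken as a pairing. With the replicate block the fitted differences were the same and 10 genes were at 1.5 times. From limma 13 were then at an unadjusted p below 0.05 and 0 at an adjusted one. With the crossed block 12 were at an unadjusted p below 0.05. Of all genes 4.14% and 4.34% had such a p in either direction with these blocks.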
